A study of Mus musculus with 12 samples.

Results

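The genes described here are 10 imprinted genes of the mouse Dlk1-Meg3, Snrpn and Peg3 loci, namely Dlk1, Meg3, Rian, Mirg, Snrpn, Gm38393, Snhg14, Ube3a, Ndn and Peg3. They were picked by symbol, after Rian and Gm38393 had been seen at higher levels in striatum without SUMO-1, and are 10 of the 53465 genes in the count table. All 10 passed the filter on low counts, as did 17796 genes in total. Total RNA of mouse striatum (labelled Striatal cells, strain background C57/BL6) was sequenced after removal of ribosomal RNA, in 12 libraries, 3 for each of 4 genotypes. The first genotype, Q175HD_SUMO-KO, combines a knockout of SUMO-1 with the Q175 neo-deleted knock-in. The second, SUMO-KO, carries the SUMO-1 knockout alone. The third, Q175HD, is the Q175 neo-deleted knock-in mouse B6J.129S1-Htttm1.1Mfc/190ChdiJ, in which the huntingtin gene Htt has an expanded CAG tract as in Huntington's disease. The fourth, WT, is wild type. The labels state no age, sex, zygosity or brain pooling for any group, and do not say that the libraries of a group came from separate mice, and a p-value then reflects only how these libraries vary, which may be technical.

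Imprinted genes are transcribed mainly from the copy of a single parent, set by DNA methylation that is laid down in sperm or egg at control regions and kept by proteins such as ZFP57 and TRIM28. At the Dlk1-Meg3 locus the paternal copy makes Dlk1 and Rtl1, and the maternal copy makes a row of noncoding RNAs: Meg3, Rian, which hosts many small nucleolar RNAs (snoRNAs), and Mirg, which hosts microRNAs. At the Snrpn locus the paternal copy makes Snrpn, Ndn, Magel2 and the long snoRNA host Snhg14, which in neurons runs antisense across Ube3a and keeps the paternal Ube3a copy silent. Peg3 is made from the paternal copy. The counts do not separate the parental copies, so imprinting itself was not measured.

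Sequences of 3 starts are shown because the results turn on Meg3, on the one of the RefSeq starts of Snrpn that lies next to Gm38393, and on Ndn. They are RefSeq windows on GRCm38.p6 that run from 250 bases before to 50 after the annotated start, written 5′ to 3′ on the strand of the gene. Capitals mark the motif TGCCGC, which ZFP57 binds when it is methylated, searched on both strands (its reverse complement, GCGGCA, is the form seen on the printed strand of both matches). The motif lay in 11.6% of the 32817 promoter windows of RefSeq genes, and in 2 of the 12 windows of the 9 members that have one; Gm38393 had none.
Meg3 (chr12:109540746-109541045, plus strand): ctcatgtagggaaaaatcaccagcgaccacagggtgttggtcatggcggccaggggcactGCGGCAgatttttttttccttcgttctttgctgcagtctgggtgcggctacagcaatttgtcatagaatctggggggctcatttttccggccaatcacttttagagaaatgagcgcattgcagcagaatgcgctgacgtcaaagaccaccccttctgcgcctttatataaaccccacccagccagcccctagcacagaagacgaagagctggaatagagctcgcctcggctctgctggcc
Snrpn (chr7:60005150-60005449, minus strand): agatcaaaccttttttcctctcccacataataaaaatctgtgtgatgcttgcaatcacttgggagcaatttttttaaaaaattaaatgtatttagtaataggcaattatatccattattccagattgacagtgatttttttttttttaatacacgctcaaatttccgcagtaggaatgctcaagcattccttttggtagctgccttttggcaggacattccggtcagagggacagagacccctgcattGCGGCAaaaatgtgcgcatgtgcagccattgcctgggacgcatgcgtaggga
Ndn (chr7:62348027-62348326, plus strand): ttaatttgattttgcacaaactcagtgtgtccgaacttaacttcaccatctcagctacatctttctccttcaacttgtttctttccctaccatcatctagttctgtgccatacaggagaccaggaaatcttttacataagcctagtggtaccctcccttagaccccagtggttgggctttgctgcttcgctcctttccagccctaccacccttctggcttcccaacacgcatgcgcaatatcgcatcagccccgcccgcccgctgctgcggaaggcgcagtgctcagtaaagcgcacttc
The Meg3 window held the motif 190 bases before the start and 13 CG dinucleotides. The Snrpn window held it 2 bases before the start, with 7 CG dinucleotides, which equals the median of all windows. The Ndn window held no match and 11 CG dinucleotides. A match is a run of letters and not a measured site.

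The microRNAs of the Dlk1-Meg3 locus are shown by the 5 hairpin genes with the most reads over the 12 libraries, since the levels of these rows are reported below. Capitals mark the seed, bases 2 to 8, which pairs with target messages.
mmu-miR-1188-5p: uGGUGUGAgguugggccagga
mmu-miR-1188-3p: uCCGAGGCuccccaccacacccugc
mmu-miR-341-5p: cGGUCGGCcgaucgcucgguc
mmu-miR-341-3p: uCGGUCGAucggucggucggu
mmu-miR-433-5p: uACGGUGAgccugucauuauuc
mmu-miR-433-3p: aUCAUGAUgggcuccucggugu
mmu-miR-3070-5p: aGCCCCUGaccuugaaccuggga
mmu-miR-3070-3p: uGGUGCUAccgucagggguaga
mmu-miR-3070-2-3p: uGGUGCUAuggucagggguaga
The hairpins Mir1188 and Mir341 lie within Rian. The hairpins Mir3070a and Mir3070b give the same 5p sequence, and their 3p sequences share the seed GGUGCUA. Of the 69 hairpin rows between Begain and Dio3, 61 matched a mature RefSeq sequence, which gave 113 mature microRNAs with 104 seeds, and 10 seeds occurred in microRNAs of more than 1 hairpin.

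The libraries held 9379594 to 17226419 counted reads. Levels are given as CPM, counts per total reads scaled by TMM, and a call means an adjusted p under 0.05 in edgeR's quasi-likelihood test (Benjamini-Hochberg over all 17796 genes). Htt lay at 159 to 218 CPM in Q175HD_SUMO-KO and 189 to 206 in Q175HD, against 263 to 302 in SUMO-KO and 249 to 284 in WT. Summed markers of striatal projection neurons, all 14 of them detected, came to 3263 to 5042 CPM in Q175HD_SUMO-KO and 4776 to 5221 in Q175HD, against 9291 to 10561 in SUMO-KO and 8683 to 10573 in WT. Summed markers of cortical excitatory neurons, 10 of 10 detected, came to 208 to 341 CPM in Q175HD_SUMO-KO, 235 to 285 in SUMO-KO, 196 to 286 in Q175HD and 383 to 975 in WT, with WT 1 and WT 2 highest. In such bulk RNA, fewer cells of a type and less RNA per cell cannot be told apart.

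Per length, on the authors' deposited TPM scale, Meg3 was the most abundant member in WT (329 ± 37.3 TPM, SD, n = 3). Snrpn followed with 223 ± 13.3 TPM, then Peg3 with 111 ± 4.72 and Ndn with 109 ± 7.93, which did not differ beyond their spread. Rian had 92.0 ± 10.1 TPM. Snhg14 with 49.8 ± 11.2, Gm38393 with 38.0 ± 6.74 and Ube3a with 35.9 ± 1.14 TPM were neighbours in this order that did not differ beyond their spread. Mirg had 19.6 ± 2.74 TPM and Dlk1, a membrane protein related to Notch ligands, was lowest at 3.21 ± 3.36, a spread as wide as its mean.

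The maternally expressed noncoding RNAs of the Dlk1-Meg3 locus were highest in libraries without SUMO-1. Rian (chr12:109603940-109661716, plus strand) had 1007, 1122 and 917 CPM in Q175HD_SUMO-KO, 950, 952 and 815 in SUMO-KO, 689, 644 and 761 in Q175HD, and 467, 571 and 548 in WT. On this CPM scale, all 6 libraries without SUMO-1 lay above all 6 with it, and the Q175HD libraries all lay above WT. The separation by SUMO-1 depended on the scale. On the authors' TPM scale, Q175HD_SUMO-KO 3 (127.5 TPM) and SUMO-KO 3 (129.5 TPM) lay below Q175HD 3 (131.0 TPM). The ratio of means was 1.45 for Q175HD_SUMO-KO over Q175HD and 1.71 for SUMO-KO over WT. These 2 comparisons chose the genes and are given as a description with no test.

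Mirg (chr12:109729764-109749460, plus strand) had 90.8, 116 and 61.7 CPM in Q175HD_SUMO-KO, 105, 92.5 and 48.9 in SUMO-KO, 56.4, 58.3 and 75.7 in Q175HD, and 38.9, 50.8 and 45.4 in WT. The third library of each SUMO-1-lacking group was far below the others and fell within the range of Q175HD or WT. Meg3 (chr12:109541001-109571726, plus strand) had 2339, 3416 and 1734 CPM in Q175HD_SUMO-KO, 3491, 2499 and 2070 in SUMO-KO, 2027, 2254 and 2173 in Q175HD, and 1658, 2049 and 1917 in WT. On the CPM scale, Meg3 in SUMO-KO lay above WT without overlap, while Q175HD_SUMO-KO lay on both sides of Q175HD. On the TPM scale, SUMO-KO 3 (332 TPM) lay below WT 2 (364 TPM) for Meg3. The ratios of means were 1.41 (Mirg) and 1.16 (Meg3) for Q175HD_SUMO-KO over Q175HD, and 1.82 and 1.43 for SUMO-KO over WT. Dlk1 (chr12:109452823-109463336, plus strand), the paternally expressed member, had 8.36, 15.8 and 4.75 CPM in Q175HD_SUMO-KO, 5.37, 4.99 and 13.9 in SUMO-KO, 8.85, 4.35 and 5.31 in Q175HD, and 2.26, 2.26 and 12.7 in WT. Its libraries overlapped in every comparison, with a spread within groups larger than any difference between them.

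**Figure D1:**
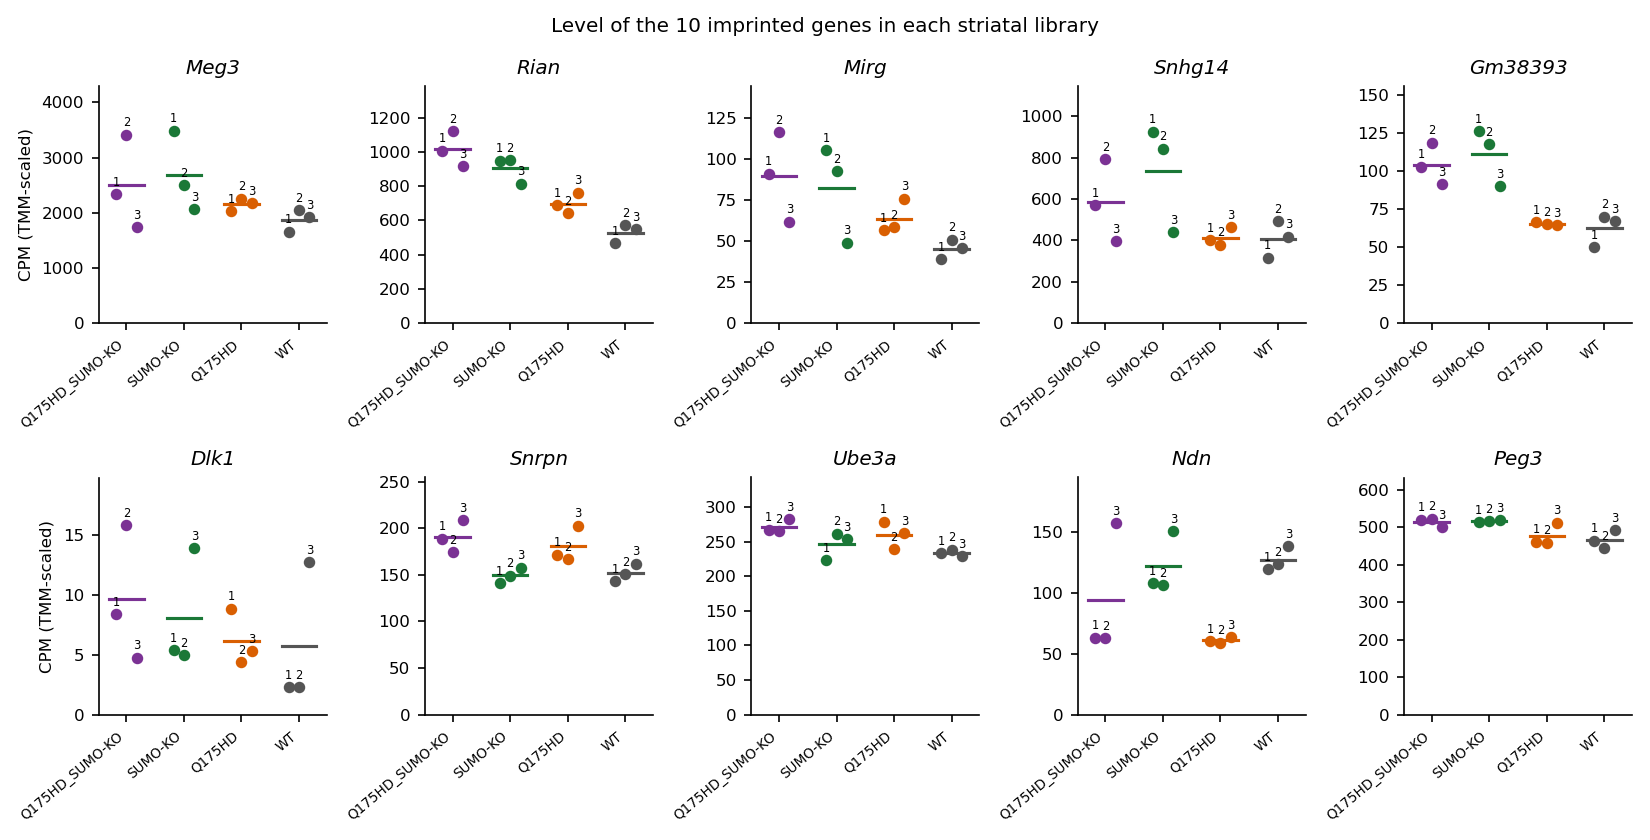
Level of each of the 10 imprinted genes (y axis, TMM-scaled CPM from 0) in each library, by genotype. Points are libraries with their replicate number and lines are group means (n = 3); Rian and Gm38393 lie higher in all 6 libraries without SUMO-1, while Ndn lies near 60 CPM in all knock-in libraries except Q175HD_SUMO-KO 3.

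At the Snrpn locus, Gm38393 and Snhg14 lay higher in most libraries without SUMO-1, whereas Snrpn, Ube3a and Ndn differed little or varied with the knock-in. Gm38393 (chr7:59974149-60005064, minus strand) is annotated as protein-coding, starts 135 bases after the Snrpn start shown above and shares 589 exonic bases with Snrpn on the same strand. It had 103, 119 and 91.4 CPM in Q175HD_SUMO-KO, 126, 118 and 90.3 in SUMO-KO, 66.4, 65.3 and 64.6 in Q175HD, and 50.2, 70.0 and 67.3 in WT. As with Rian on the CPM scale, all 6 libraries without SUMO-1 lay above all 6 with it. The ratios of means were 1.595 for Q175HD_SUMO-KO over Q175HD and 1.78 for SUMO-KO over WT. On the TPM scale the lowest library without SUMO-1, Q175HD_SUMO-KO 3 (44.5 TPM), lay just above the highest with it, WT 2 (43.1 TPM). Snrpn (chr7:59982495-60140219, minus strand), which encodes the spliceosomal protein SmN of neurons, had 189, 174.7 and 209 CPM in Q175HD_SUMO-KO, 141, 149 and 158 in SUMO-KO, 172, 167 and 203 in Q175HD, and 143, 151 and 162 in WT. It lay higher in knock-in libraries and showed no such step with SUMO-1, with ratios of 1.06 for Q175HD_SUMO-KO over Q175HD and 0.984 for SUMO-KO over WT. How reads in the shared bases were counted is not given in the sources used here, so the split between the 2 genes is uncertain.

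Snhg14 (chr7:59307924-59975759, minus strand) had 569, 793 and 395 CPM in Q175HD_SUMO-KO, 925, 843 and 441 in SUMO-KO, 400, 379 and 462 in Q175HD, and 316, 492 and 418 in WT. The first and second libraries of each SUMO-1-lacking group stood above all others and the third did not, a pattern close to that of Mirg. Ube3a (chr7:59228750-59311536, plus strand), an E3 ubiquitin ligase, had 267, 265 and 283 CPM in Q175HD_SUMO-KO, 224, 262 and 253 in SUMO-KO, 279, 240 and 262 in Q175HD, and 233, 239 and 229 in WT. Its ratio of means was 1.045 in Q175HD_SUMO-KO over Q175HD and 1.054 in SUMO-KO over WT, beside 1.42 (Q175HD_SUMO-KO over Q175HD) and 1.80 (SUMO-KO over WT) for Snhg14. Of the exonic bases of Ube3a, 27.3% are overlapped by genes on the opposite strand, 1803 bases of them by Snhg14, and whether the counting used strand is not given in the sources used here, so reads of the 2 genes cannot be told apart there.

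Ndn (chr7:62346569-62350262, plus strand), which encodes the neuronal MAGE-family protein necdin, had 63.2, 62.8 and 158 CPM in Q175HD_SUMO-KO, 108, 107 and 151 in SUMO-KO, 60.6, 59.0 and 63.5 in Q175HD, and 119, 124 and 138 in WT. In 5 of the 6 knock-in libraries it stood near 60 CPM, below all libraries without the knock-in, while Q175HD_SUMO-KO 3 held the highest level of all 12. For Ndn that library thus goes against the other libraries with its label. That library also carries a title number that does not follow on from those of the other libraries of its group. Its levels of Htt (159 CPM), of the Polycomb-group gene Sfmbt2 (16.9 CPM) and of the Ndn neighbour Magel2 (3.67 CPM) lay on the side of the knock-in libraries, and Ndn results are given with and without it. The Ndn log2 fold change of Q175HD_SUMO-KO over Q175HD was 0.64 with that library and 0.0057 without it. Peg3 (chr7:6703892-6730431, minus strand), a zinc finger protein, had 520, 523 and 500 CPM in Q175HD_SUMO-KO, 514, 516 and 518 in SUMO-KO, 460, 459 and 511 in Q175HD, and 464, 443 and 491 in WT. It was among the steadiest members, with all libraries between 443 and 523 CPM.

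Across the SUMO-1 comparisons, the median log2 fold change of the 10 members was 0.50 in Q175HD_SUMO-KO over Q175HD and 0.51 in SUMO-KO over WT, against medians of 0.04 and 0.02 over all genes tested. The medians were 0.18 without Q175HD_SUMO-KO 2 and 0.29 without WT 1. Q175HD_SUMO-KO 2 held the highest level of its group for 7 of the 10 members. It was also the only library of Q175HD_SUMO-KO and Q175HD with high Xist, the mark used for sex. The fold changes were positive for 10 of 10 and 8 of 10 members. Groups did not overlap, with SUMO-1-lacking libraries higher, for 2 of 10 members in Q175HD_SUMO-KO over Q175HD (6.35% of all genes tested) and for 4 of 10 in SUMO-KO over WT (7.59%). Rian and Gm38393 were higher without overlap in both, as were 1.07% of all genes tested. The choice of members fixed this direction for those 2 genes. Over fits that left out each library in turn, the log2 fold changes stayed within 0.46 to 0.60 and 0.69 to 0.84 for Rian and within 0.57 to 0.72 and 0.69 to 0.96 for Gm38393, while Meg3 ranged from -0.08, without Q175HD_SUMO-KO 2, to 0.38 in Q175HD_SUMO-KO over Q175HD. Members differed widely among themselves, by log2 fold changes from 0.06 (Ube3a) to 0.67 (Gm38393) with the knock-in present, and from -0.06 (Ndn) to 0.86 (Mirg) without it.

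The knock-in effect itself was not used to choose the genes and was tested. Its comparisons use the same libraries as the SUMO-1 comparisons that chose Rian and Gm38393. The tests are therefore not independent of that choice. With SUMO-1 present, Q175HD against WT, none of the 10 members was called, where 3.93% of all genes tested were called. At an unadjusted p under 0.05 there were 3 of 10 (17.8% of all genes), and DESeq2 called 2 (6.18% of all genes). The largest fold changes were those of Ndn, at a log2 fold change of -1.06 (SE 0.31, adjusted p = 0.0973, edgeR), and Mirg, at 0.50 (SE 0.29, adjusted p = 0.418). Rian stood at 0.40 (SE 0.12, adjusted p = 0.0775) and Snrpn at 0.25 (SE 0.10, adjusted p = 0.197). The fitted spread is shared over all 12 libraries and includes Q175HD_SUMO-KO 3: without that library, Ndn fell by 1.06 on the log2 scale in Q175HD against WT with an adjusted p of 0.000695 (edgeR). That library was singled out by its Ndn level, so this p-value is a description and no independent test. Of the 12 fits that left out 1 library, 1 called Ndn, with adjusted p-values of 0.000695 to 0.239 (edgeR). Groups did not overlap for 5 of the 10 members, higher for Rian, Mirg, Snrpn and Ube3a and lower for Ndn, as for 27.8% of all genes tested.

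Without SUMO-1, Q175HD_SUMO-KO against SUMO-KO, Snrpn rose by a log2 fold change of 0.35 (SE 0.10, adjusted p = 0.0449, edgeR), higher in 3 of 3 libraries than all 3 of SUMO-KO. It was the single call among the 10, where 7.81% of all genes tested were called in either direction and 3.19% as higher. DESeq2 also called 1 of the 10 (9.41% of all genes), 1 had an unadjusted p under 0.05 (24.4%), and groups did not overlap for 2, Snrpn and Ube3a, both higher (24.8% in either direction). The call was lost in 9 of the 12 fits that left out 1 library, with adjusted p-values of 0.0285 to 0.219 and fold changes of 0.26 to 0.41. Ndn stood at -0.36 (SE 0.31, adjusted p = 0.500). Without Q175HD_SUMO-KO 3 it fell by 0.98 on the log2 scale (adjusted p = 0.00246, edgeR), and that library was the single one whose removal brought the call. Since the library was singled out by its Ndn level, this too is a description. Over the 12 fits the adjusted p-values of Ndn were 0.00246 to 0.839 (edgeR). The other 8 members lay between -0.33 (Snhg14) and 0.22 (Dlk1), with adjusted p-values of 0.337 or more. Snrpn and Ndn were measured beside a loss of projection neuron markers, of which 12 of 14 fell here and 9 of 14 fell in Q175HD against WT; the part of those cells in the result was not tested. In Q175HD against WT the Snrpn difference was 0.25 without, and -0.02 with, a term for cortical marker RNA, which was highest in WT 1 and WT 2.

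The difference between the 2 knock-in effects, that is, their interaction with SUMO-1 status, was called for 0 of the 10 members and 0 of all genes tested (edgeR, 0%), with 770 genes (4.33%) at an unadjusted p under 0.05, none a member, and 32 (0.182%) called by DESeq2, none a member. Among the members it was largest for Ndn at 0.70 (SE 0.44, adjusted p = 0.997) and was 0.09 without Q175HD_SUMO-KO 3. For Rian it was -0.24 (SE 0.17), with an interval of -0.56 to 0.09 on the log2 scale. In simulated counts made from these libraries the test called 39 of 100 genes changed 1.5-fold in Q175HD against WT and 44 of 100 in Q175HD_SUMO-KO against SUMO-KO, and 81 and 79 of 100 changed 2-fold.

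**Figure D2:**
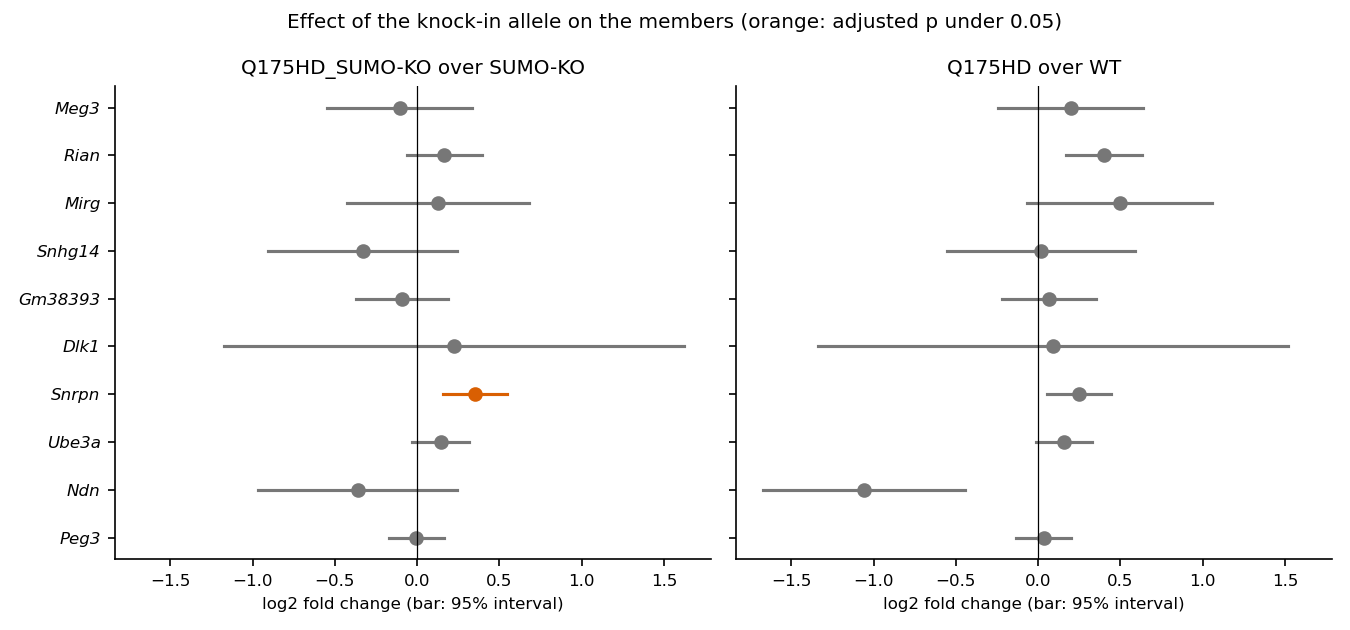
Fitted log2 fold change (x axis) of each member in Q175HD_SUMO-KO over SUMO-KO (left) and Q175HD over WT (right), with bars for the 95% interval. Orange marks an adjusted p under 0.05, reached by Snrpn at 0.35; Ndn lies at -1.06 in Q175HD over WT and at -0.36 in Q175HD_SUMO-KO over SUMO-KO.

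Magel2, another MAGE-family gene, lies 26.7 kb from Ndn on the same strand and went the other way. It had 3.94, 4.55 and 3.67 CPM in Q175HD_SUMO-KO, 1.68, 2.19 and 2.29 in SUMO-KO, 4.002, 2.63 and 2.92 in Q175HD, and 0.67, 0.84 and 1.12 in WT. All 6 knock-in libraries lay above all 6 without it. It rose in Q175HD against WT by 1.84 (SE 0.29, adjusted p = 0.0037, edgeR) and in Q175HD_SUMO-KO against SUMO-KO by 0.96 (SE 0.27, adjusted p = 0.0421) on the log2 scale, from 8 to 61 reads a library. It was the single gene, other than Snrpn, to be called in a knock-in comparison among the 37 tested genes between Atp10a and Mkrn3. Of the 61 tested genes between Begain and Dio3, 0 were called by edgeR in either, with 1 and 2 at an unadjusted p under 0.05 and 0 and 1 called by DESeq2 in Q175HD_SUMO-KO against SUMO-KO and in Q175HD against WT. Of the 8 between Zim1 and Zfp264, 0 were called, with 1 and 1 at an unadjusted p under 0.05 and 0 and 1 called by DESeq2.

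**Figure D3:**
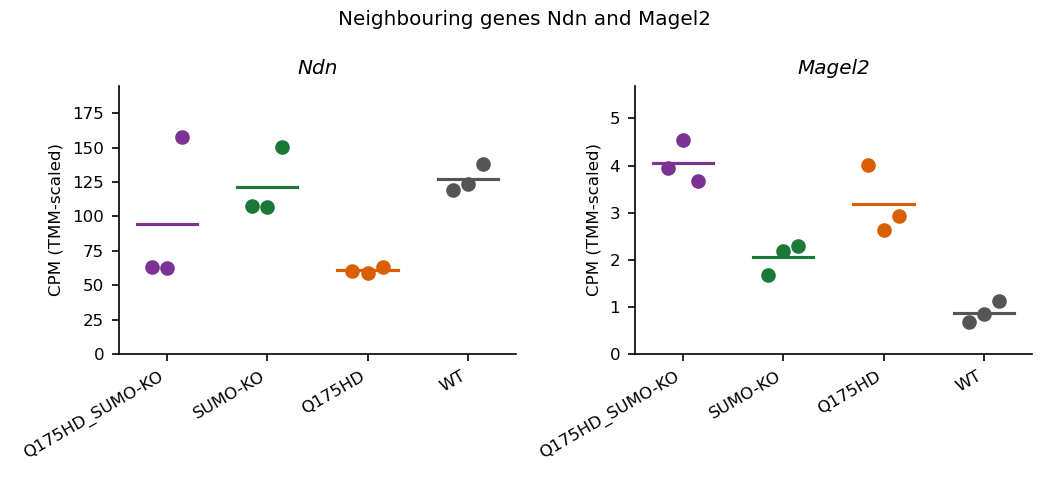
Levels of the neighbouring genes Ndn and Magel2 (y axes, TMM-scaled CPM from 0) in each library, with group means as lines (n = 3). The knock-in libraries lie low for Ndn, apart from Q175HD_SUMO-KO 3 at 158 CPM, and high for Magel2, at 2.63 to 4.55 CPM against 0.67 to 2.29 CPM in the libraries without the knock-in.

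Small RNA genes of the Dlk1-Meg3 locus also lay higher in most libraries without SUMO-1. Total RNA reads over a hairpin gene count the host transcript and precursors, not the mature microRNA. Mir1188, with the most reads, had 6.51, 8.08 and 3.00 CPM in Q175HD_SUMO-KO, 12.2, 10.4 and 4.73 in SUMO-KO, 3.51, 3.83 and 3.26 in Q175HD, and 4.35, 7.71 and 4.62 in WT, from 49 to 116 reads a library. The third library was again the lowest of each SUMO-1-lacking group. Over the 43 tested hairpin rows, the median log2 fold change was 0.63 in Q175HD_SUMO-KO over Q175HD (42 positive) and 1.02 in SUMO-KO over WT (43 positive). By host, the medians in those comparisons were 0.72 and 0.70 for the 3 rows inside Rian, 0.50 and 0.94 for the 5 inside Mirg, and 0.63 and 1.076 for the 35 inside neither. For 7 tested snoRNA rows they were 0.54 and 0.67. In the knock-in comparisons 0 of the 43 hairpin rows was called by edgeR; DESeq2 also called 0 and unadjusted p-values under 0.05 came to 1 in Q175HD_SUMO-KO against SUMO-KO and 0 in Q175HD against WT.

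The same held on chromosome 7. Summed over 210 snoRNA rows of the Snrpn locus, 124 of them with reads, levels were 21.3, 38.0 and 12.5 CPM in Q175HD_SUMO-KO, 44.4, 41.7 and 16.9 in SUMO-KO, 15.5, 14.4 and 18.5 in Q175HD, and 9.86, 20.2 and 15.3 in WT. These sums order the libraries as Snhg14 does within the SUMO-1-lacking groups, with the third library lowest.

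**Figure D4:**
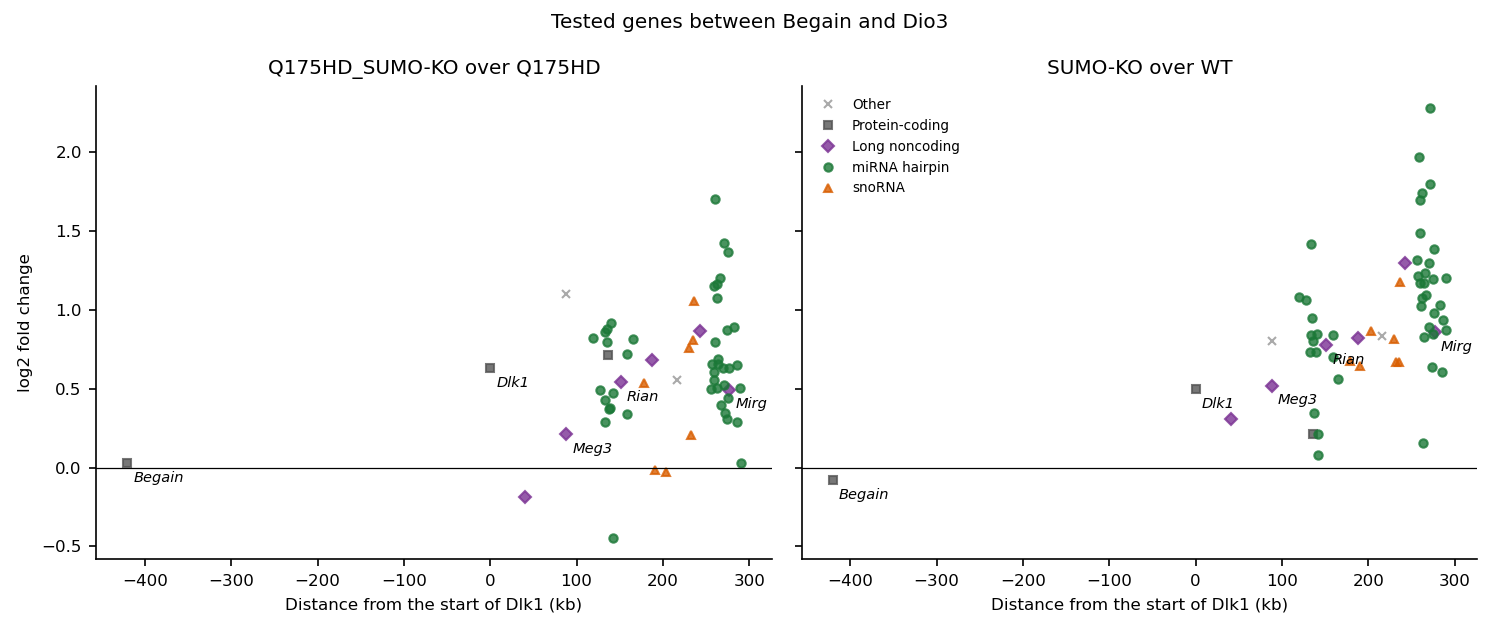
Log2 fold change (y axis) of each tested gene between Begain and Dio3 by distance from the start of Dlk1 (x axis, kb), in Q175HD_SUMO-KO over Q175HD (left) and SUMO-KO over WT (right). From Meg3 to Mirg nearly all rows lie above 0, with medians of 0.63 and 1.02 for the 43 hairpin rows, while Begain lies at 0.03 and -0.08; these fold changes are a description without a test.

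Other nuclear RNAs were measured beside these genes. Malat1, a noncoding RNA of nuclear speckles, had 10921, 12155 and 7626 CPM in Q175HD_SUMO-KO, 18541, 16790 and 10060 in SUMO-KO, 8722, 9456 and 9665 in Q175HD, and 9642, 12880 and 10910 in WT. Kcnq1ot1, the imprinted antisense RNA of another locus, had 350, 492 and 198 CPM in Q175HD_SUMO-KO, 481, 451 and 204 in SUMO-KO, 273, 232 and 277 in Q175HD, and 238, 303 and 222 in WT. Q175HD_SUMO-KO 3 and SUMO-KO 3 were the lowest of their groups for both, as for Meg3, Rian, Mirg, Snhg14 and Gm38393. These libraries also had the most counted reads of their groups. Q175HD_SUMO-KO 3 had 17226419 reads, against 12195985 and 11237097 in Q175HD_SUMO-KO 1 and Q175HD_SUMO-KO 2. SUMO-KO 3 had 14714746, against 9379594 and 10120161 in SUMO-KO 1 and SUMO-KO 2. Their TMM scaling factors, 0.967 and 0.950, were the lowest of their groups. The part of depth in this pattern was not tested. Reads in GENCODE's TEC class, unspliced loci of unsettled status, made up 0.55, 0.77 and 0.29% of reads in Q175HD_SUMO-KO, 1.11, 0.94 and 0.39% in SUMO-KO, 0.41, 0.40 and 0.42% in Q175HD, and 0.40, 0.61 and 0.42% in WT. Of the 8 tested nuclear noncoding RNAs in the list, 6 had a positive fold change in Q175HD_SUMO-KO over Q175HD (median 0.13) and 7 in SUMO-KO over WT (median 0.28); edgeR called 0 in both, where 0.0337% and 0.045% of all genes were called, DESeq2 called 0 (0.0864% and 1.5% of all genes), and 0 and 2 had an unadjusted p under 0.05 (5.28% and 13.5%). In Q175HD_SUMO-KO against SUMO-KO, Neat1, the scaffold of paraspeckles, fell by 0.73 (SE 0.20, adjusted p = 0.0424, edgeR), the single call of the 8.

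With the mean level of those nuclear RNAs (Kcnq1ot1 left out) as a term in the fit, an alternative chosen after the data were seen, the log2 fold changes of Q175HD_SUMO-KO over Q175HD and of SUMO-KO over WT were 0.52 and 0.68 for Rian (0.54 and 0.78 without the term), and 0.63 and 0.66 for Gm38393 (0.67 and 0.83). They were 0.11 and 0.21 for Meg3 (0.21 and 0.52), 0.38 and 0.42 for Mirg (0.49 and 0.86), and 0.37 and 0.41 for Snhg14 (0.50 and 0.85). These values come from the comparisons that chose the genes and are a description; the part of nuclear RNA content in the result was not tested.

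**Figure D5:**
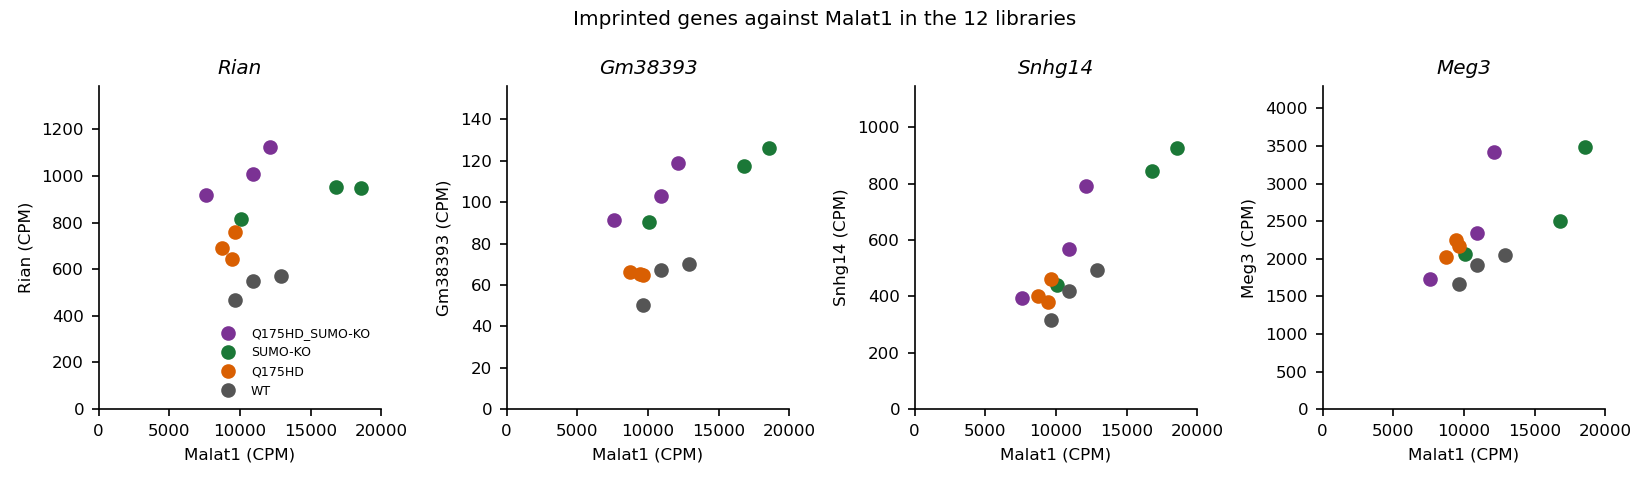
CPM of Rian, Gm38393, Snhg14 and Meg3 (y axes, from 0) against Malat1 (x axis, CPM) in the 12 libraries, coloured by genotype. Malat1 spans 8722 to 12880 CPM in the libraries with SUMO-1, and SUMO-KO 1 and SUMO-KO 2 lie above that span and Q175HD_SUMO-KO 3 below it, while the third library of each SUMO-1-lacking group lies among the libraries with SUMO-1 for Snhg14 and Meg3.

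Over the 12 libraries, and among 12775 genes with a mean count of at least 50, the patterns most like that of Rian were those of Ppp4r3a (Pearson r = 0.94 of log2 CPM), Cpsf6 (0.94), Rmdn2 (0.93), Prpf4b (0.93) and Rsbn1 (0.93). Among members, Gm38393 ranked 19 with 0.90 and Mirg 48 with 0.88, while Snrpn stood at 0.36 and Ndn at -0.24. For Gm38393 they were Gm22009 (0.96), Edrf1 (0.94), Ttc21b (0.94), Rbm12b2 (0.93) and Mrpl33 (0.93), with Snhg14 at rank 43 (0.88) and Snrpn at -0.01. These values describe libraries that share depth and RNA quality as well as genotype. Rian and Gm38393 had both been seen higher without SUMO-1 in these same libraries before the genes were picked. Their likeness to each other follows in part from that choice and is a description with no test.

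Outside these members, 79 other imprinted genes were listed, of which 59 were tested. In Q175HD against WT, 2 rose and 1 fell. Sfmbt2, a Polycomb-group gene, had 17.1, 15.5 and 19.3 CPM in Q175HD against 4.52, 3.10 and 2.61 in WT, a log2 rise of 2.35 (SE 0.21); Magel2 was the other. Kcnk9, a potassium channel gene, fell by 1.104 (SE 0.26), to 4.56, 7.13 and 4.25 CPM in Q175HD against 12.98, 11.98 and 9.31 in WT, where cortical markers were also high. In Q175HD_SUMO-KO against SUMO-KO, 5 rose and 2 fell. Sfmbt2 rose by 2.69 (SE 0.21), to 18.2, 24.9 and 16.9 CPM in Q175HD_SUMO-KO against 3.05, 3.19 and 3.01 in SUMO-KO. Zdbf2 rose by 0.40 and Blcap by 0.38, and Klf14 was called on 4, 11 and 21 reads in Q175HD_SUMO-KO against 0, 0 and 2 in SUMO-KO. The transporter gene Slc22a3 fell by 1.02 (SE 0.21) and the synaptic scaffold gene Ppp1r9a by 0.52 (SE 0.12).

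With SUMO-1 loss, 0 of those 59 genes were called by edgeR in Q175HD_SUMO-KO against Q175HD or in SUMO-KO against WT, with 4 and 9 at an unadjusted p under 0.05 and 0 and 2 called by DESeq2. Their medians were 0.05 and -0.02 on the log2 scale. Zdbf2 stood at 0.46 (SE 0.10) and 0.42 (SE 0.10), with adjusted p-values of 0.472 and 0.169 (edgeR). Magel2 stood at 0.34 (SE 0.25) and 1.22 (SE 0.30), with adjusted p-values of 0.903 and 0.172 (edgeR), and its SUMO-KO libraries lay above WT without overlap, at a ratio of means of 2.35. Nnat stood at 0.48 and 0.06, Rtl1 at 0.72 and 0.21 on 5 to 18 reads a library, and Igf2 at 0.53 and -0.54 with under 2 CPM in all libraries; H19 was below the filter. Of 22 genes that maintain imprints, 0 were called by edgeR in any of the 4 comparisons, with 2 to 4 at an unadjusted p under 0.05, and DESeq2 called 2 in Q175HD_SUMO-KO against SUMO-KO and 0 in the others. Trim28 had 106, 109 and 118 CPM in Q175HD_SUMO-KO, 86.4, 84.2 and 114 in SUMO-KO, 108, 112 and 115 in Q175HD, and 98.5, 92.5 and 102 in WT. Of 12 other snoRNA host genes, 0 were called by edgeR in any of the 4, with 0 to 5 at an unadjusted p under 0.05 and 1 called by DESeq2, in Q175HD_SUMO-KO against SUMO-KO. Gas5 stood at 0.19 in Q175HD_SUMO-KO over Q175HD and 0.16 in SUMO-KO over WT.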

How the data were processed

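Total RNA-seq of 12 mouse striatum libraries was analysed. Per the labels' protocols, RNA came from a miRNeasy kit and libraries from a directional NEBNext kit after removal of ribosomal RNA. Per the submitters' processing notes, cutadapt 2.10, STAR 2.5.2a, Bowtie 1.1.2 and DESeq2 were used with mm10 and GRCm38; no source used here gives the counting tool or its strand setting. The authors deposited raw read counts per Ensembl gene and their own TPM values, per the file headers. TPM served to compare genes per length and, for Rian, Meg3 and Gm38393, to compare libraries on another scale. The level of the knocked-out gene is not reported here. The table held 0 columns of other series.

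Tests on the deposited counts used edgeR (version 4.0.16, R 4.3.3): filterByExpr (minimum count 10, total 15), TMM, 4 group means over 12 libraries, robust quasi-likelihood fit, Benjamini-Hochberg adjustment over all 17796 genes. An SE is the fold change over the root of F. The procedure was tested on simulated data. Libraries ranged from 9379594 to 17226419 reads; no replicate pair of a group agreed within sampling noise (chi-square per degree of freedom 9.26 to 30.4). Positions come from GENCODE M21 (GRCm38); sequences are from RefSeq GRCm38.p6.

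The members and lists were chosen with earlier results of these data known. Named were all members, called genes of the other lists (up to 5 a direction for imprinted genes, 3 for the rest), called genes in the windows, preset reference genes and the 5 patterns most like Rian and Gm38393. Alternatives were DESeq2 1.42.0, median-ratio scaling, no filter, terms for replicate number, sex (Xist) or cortical markers, fits of only the groups compared, and leaving out each library.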

Additional observations from a re-analysis of the deposited data

How the results depend on the processing

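In Q175HD against WT the 0 calls among members became 1 with a replicate block (Ndn), 1 with a sex term (Rian), 2 with DESeq2 (Ndn and Rian), 3 in the fit of only those groups, and 0 to 1 when libraries were left out in turn (Ndn without Q175HD_SUMO-KO 3, Rian without SUMO-KO 3). In Q175HD_SUMO-KO against SUMO-KO the 1 call (Snrpn) became 0 with median-ratio scaling, with no filter and in the fit of only those groups, and 0 to 1 when libraries were left out. The 3 calls among other imprinted genes in Q175HD against WT became 1 with a cortical term, 7 in the fit of only those groups and 8 with DESeq2, with 2 to 8 over left-out libraries; the 7 in Q175HD_SUMO-KO against SUMO-KO became 1 in the fit of only those groups, with 3 to 9. In SUMO-KO against WT the 0 became 2 with DESeq2, and 0 to 4 over left-out libraries (4 without SUMO-KO 3). The members' median log2 fold change ranged from 0.18 (without Q175HD_SUMO-KO 2) to 0.56 in Q175HD_SUMO-KO over Q175HD and from 0.29 (without WT 1) to 0.67 in SUMO-KO over WT over left-out libraries. The cause of these shifts was not tested.

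Alternatives chosen after seeing the data were 3. With a nuclear RNA term, calls in Q175HD against WT were 3 among members and 9 among other imprinted genes. Without WT 1 and WT 2, they were 1 among other imprinted genes there and 0 among members in Q175HD_SUMO-KO against SUMO-KO, and the median in SUMO-KO over WT was 0.29. The 3 libraries with high Xist were Q175HD_SUMO-KO 2, SUMO-KO 2 and WT 2, with none in Q175HD. Without these 3, members called in Q175HD_SUMO-KO against SUMO-KO were 0 and other imprinted genes called there were 2. The median in Q175HD_SUMO-KO over Q175HD was then 0.18, and Q175HD_SUMO-KO 2 was the library left out of that comparison.

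Members that were not called changed sign under some settings. In Q175HD against WT, Dlk1 stood at -0.56 with a cortical term, -1.04 without WT 1 and WT 2 and -0.29 without high Xist, Snrpn at -0.024 and Peg3 at -0.035 with a cortical term, Snhg14 at -0.013, Gm38393 at -0.039 and Peg3 at -0.042 without WT 1 and WT 2, and Peg3 at -0.0029 without high Xist. In Q175HD_SUMO-KO against SUMO-KO, the nuclear RNA term gave 0.21 for Meg3, 0.13 for Snhg14 and 0.096 for Gm38393; without high Xist Mirg stood at -0.0067 and Dlk1 at -0.58; Peg3 stood at 0.0030 with no filter, 0.0018 with a cortical term and 0.0038 without WT 1 and WT 2. The interaction stood at -0.29 for Dlk1 and 0.035 for Ube3a without high Xist, at 0.11 for Ube3a and 0.037 for Peg3 with a cortical term, and at 0.046 for Peg3 without WT 1 and WT 2. Leaving out libraries in turn, the fold changes of Q175HD against WT ranged from -0.29 to 1.45 for Dlk1, -0.14 to 0.17 for Snhg14, -0.068 to 0.16 for Gm38393 and -0.019 to 0.075 for Peg3. Those of Q175HD_SUMO-KO against SUMO-KO ranged from -0.40 to 0.13 for Meg3, -0.14 to 0.35 for Mirg, -0.33 to 0.89 for Dlk1, -0.22 to 0.0063 for Gm38393 and -0.013 to 0.0012 for Peg3, and the interaction from -1.22 to 0.80 for Dlk1, -0.077 to 0.041 for Ube3a and -0.078 to 0.016 for Peg3. In the SUMO-1 comparisons the sign changed in 4 of 220 values in Q175HD_SUMO-KO over Q175HD (Meg3, Snrpn and Ube3a) and in 11 of 220 in SUMO-KO over WT (Dlk1, Ndn, Snrpn and Ube3a).

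Same-numbered libraries did not vary together in every pair (18 pairs, r from -0.23 to 0.57, with 11 over 0.1), so the numbers were not taken as pairs, and the replicate block gave 1 call in each knock-in comparison and 0 in the interaction. Depth limits Dlk1, Magel2, Rtl1 and the hairpin rows most.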
